A study of Arabidopsis thaliana with 36 samples.

Results

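The genes described here are 10 members of the xyloglucan endotransglucosylase/hydrolase (XTH) family of Arabidopsis thaliana, of 33602 genes listed. They were chosen by name, as XTH4 (AT2G06850), XTH9 (AT4G03210), XTH14 (AT4G25820), XTH15 (AT4G14130), XTH17 (AT1G65310), XTH18 (AT4G30280), XTH19 (AT4G30290), XTH22 or TCH4 (AT5G57560), XTH23 or XTR6 (AT4G25810) and XTH24 or MERI5 (AT4G30270). The other 23 genes of the 33-member family serve as company. Messenger RNA was sequenced from whole 4-day-old seedlings kept in liquid Murashige and Skoog medium, in 12 groups of 3 libraries that the labels describe as biological replicates. The ethylene experiment exposed the wild type Col-0, raised on 0.5% glucose, for 2 h or 4 h to 10 µM ACC, from which plants form the hormone ethylene, or to mock. The glucose-TOR experiment started from seedlings raised with no glucose, which then had 15 mM glucose or none for 2 h. Its genotypes were tor, labelled as an inducible tor mutant, and Col-0. TOR is a kinase that couples sugar supply to growth. What induces it is not stated in the sources used here. The glucose-HXK1 experiment gave the same treatment to gin2, a mutant of the hexokinase and glucose sensor HXK1, and to its wild type Ler.

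Xyloglucan is the main hemicellulose of the growing primary wall and lies between cellulose microfibrils. XTH enzymes cut a xyloglucan backbone and join the cut end to another chain (endotransglucosylase activity) or to water (hydrolase activity), and are tied to wall loosening and remodelling while cells expand. Xyloglucan itself is made in the Golgi, where CSLC proteins build the glucan backbone, XXT enzymes add xylose, and MUR3 and XLT2 add galactose. The family is large, and its members are known for different places and triggers. XTH14 and XTH17, XTH18 and XTH19 are known from roots, XTH4 and XTH9 from stems and vascular tissue, XTH15 from the response to shade, XTH22 from the response to touch, and XTH24 was first named for its transcript in meristems.

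Values are reads per 1e+06 reads (RPM), changes are differences in log2(RPM + 1) ± SE from a limma fit to the 12 libraries of an experiment, and genes with a Benjamini-Hochberg adjusted p below 0.05, adjusted over all genes tested, are termed called. The pseudocount of 1 RPM understates changes of low genes. Depth on listed genes was 16.4 to 21.5 M (1e+06) reads a library for ethylene, 13.3 to 21.9 M for glucose-TOR and 5.64 to 13.6 M for glucose-HXK1, so that 3 reads stood for at most 0.183, 0.226 and 0.462 RPM. In the gin2 libraries 13.1% to 18.1% of RPM lay on genes not listed, against 28.6% to 54.1% in Ler with glucose and 26.9% to 54.3% in Ler without, and both Ler libraries numbered 3 stood apart from the others. TOR read higher in tor than in Col-0 (178 and 96.1 RPM with glucose), which does not show a loss of TOR, so tor stands for the libraries labelled tor. HXK1 read lower in gin2 than in Ler (17.7 and 50.5 RPM with glucose). Shoot and root markers were present in all libraries, with RBCS1A at 5963 RPM or more and SCR at 33.9 RPM or more. Because whole seedlings were pooled, fewer cells of a type and less RNA per cell cannot be told apart.

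The stretches of DNA just before XTH17, XTH18 and XTH19 are shown because these 3 close relatives, known from roots, recur in the comparisons below, and because a long stretch was found to be shared between the first and the second. Each line gives the 250 bases before the annotated gene start, from RefSeq, build TAIR10.1, read in the direction of the gene, with runs of at least 15 bases that are identical in another of the 10 members' windows in capitals.
XTH17 (chr1:24256804-24257053, plus strand): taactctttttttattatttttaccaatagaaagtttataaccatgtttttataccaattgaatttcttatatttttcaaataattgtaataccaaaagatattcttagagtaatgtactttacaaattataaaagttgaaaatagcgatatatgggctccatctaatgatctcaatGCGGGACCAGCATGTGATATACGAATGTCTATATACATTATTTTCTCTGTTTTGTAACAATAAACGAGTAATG
XTH18 (chr4:14827212-14827461, minus strand): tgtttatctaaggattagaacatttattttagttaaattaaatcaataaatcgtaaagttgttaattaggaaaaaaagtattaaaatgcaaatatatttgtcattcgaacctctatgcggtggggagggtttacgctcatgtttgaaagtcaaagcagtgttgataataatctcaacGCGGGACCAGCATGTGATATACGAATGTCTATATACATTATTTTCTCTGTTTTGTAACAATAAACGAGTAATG
XTH19 (chr4:14830225-14830474, minus strand): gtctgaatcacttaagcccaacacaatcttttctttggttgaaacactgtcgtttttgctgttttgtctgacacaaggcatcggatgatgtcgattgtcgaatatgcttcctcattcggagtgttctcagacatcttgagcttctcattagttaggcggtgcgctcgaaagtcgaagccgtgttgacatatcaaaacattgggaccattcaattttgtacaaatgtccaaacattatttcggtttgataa

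The 73 bases next to the gene start (positions -73 to -1) were identical in XTH17 and XTH18, which lie on chromosomes 1 and 4. Of the 100 bases next to the start, 87 matched at the same position. Among all 45 pairs of members the next longest identical run was 11 bases. XTH19 is the neighbour of XTH18, with 1500 bases between them, yet shared a run of only 9 bases with either gene. Of 5 motifs searched on both strands, only TATCCA, a sugar-response element known from rice, occurred in any of the 10 windows. It stood in XTH23, as TGGATA at position -52, and 13.6% of all 27443 windows of this kind hold it. The G-box CACGTG (6.49% of windows), the GCC box GCCGCC (1.87%), the auxin response element TGTCTC (10.95%) and the brassinosteroid response element CGTGCG (1.57%) matched none of the 10. The absence of these letters from a 250-base window says nothing about binding elsewhere.

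XTH4 and XTH24, made up most of the XTH transcript among the 8 members listed in every group, and which of them led changed with the sugar status. Levels between genes are compared per kb of transcript. In Col-0 with glucose the order was XTH4 at 148 RPM per kb, XTH24 at 89.1, XTH9 at 36.8 and XTH18 at 21.9. Without glucose XTH24 stood at 367 RPM per kb and XTH4 at 317 in Col-0, followed at a distance by XTH15 at 27.8 and XTH9 at 20.2. With SDs of 118 and 15.6 RPM per kb (n = 3), these glucose-free levels of XTH24 and XTH4 did not differ beyond their spread. In mock-treated seedlings, which had grown on glucose, XTH4 led at 370.4 RPM per kb after 2 h, and XTH24 was behind XTH9, XTH14 and XTH15 at 24.1.

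**Figure D1:**
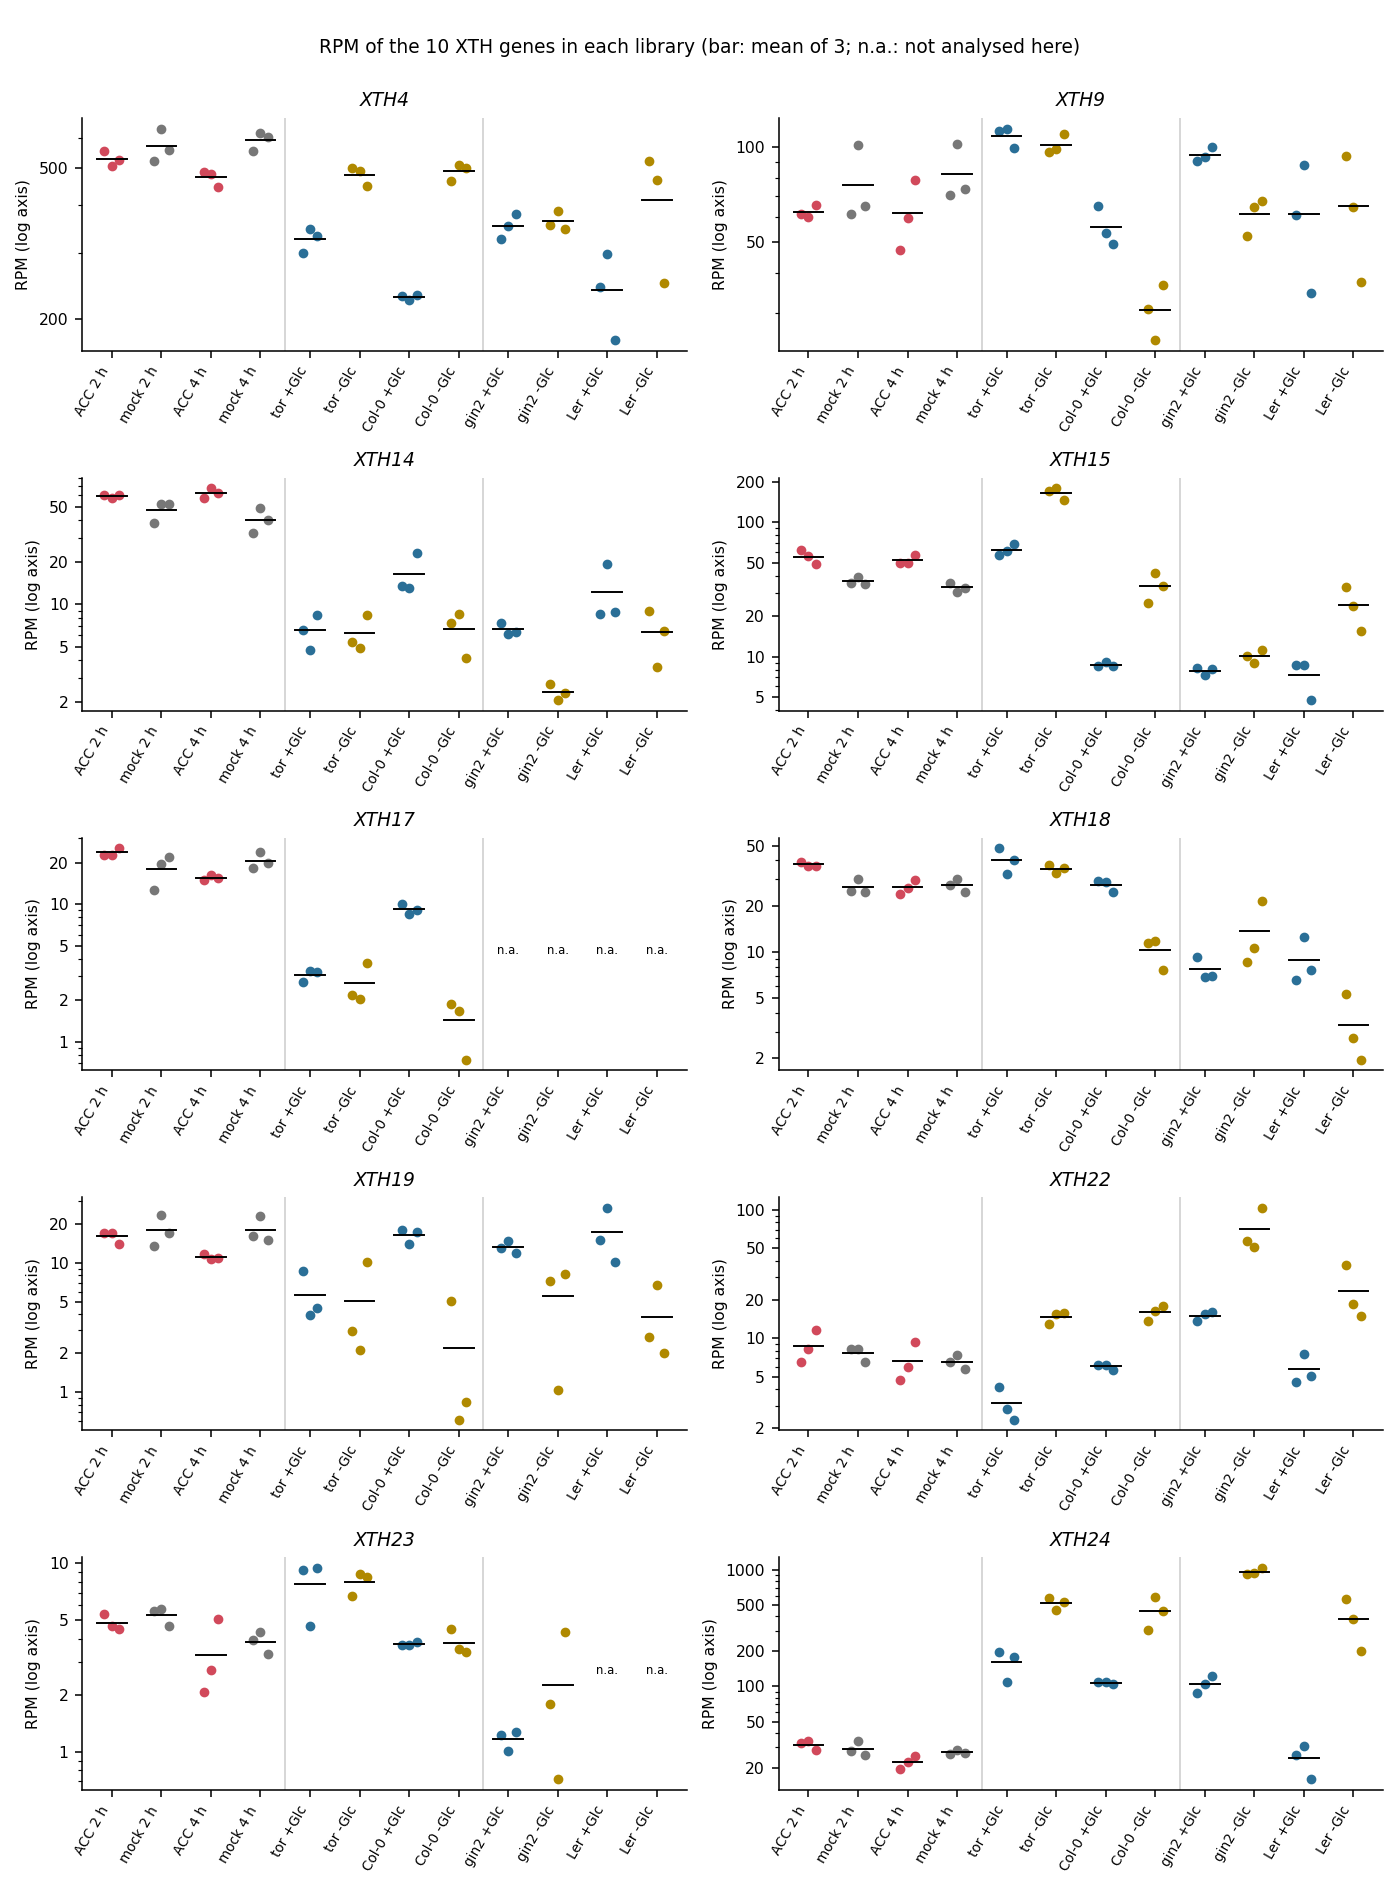
RPM of each of the 10 XTH genes (one panel per gene, log axis) in each library, by group, with a bar at the mean of 3 libraries; vertical lines part the 3 experiments, which were normalized separately, and n.a. marks values not analysed here. XTH24 lies between 199.7 and 1038 RPM in the glucose-free libraries, and between 15.9 and 198 RPM in those with glucose added for 2 h.

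As a share of the 8 genes' summed RPM per kb, XTH24 took 25.9% in tor with glucose against 43.2% without, and 26.7% in Col-0 with glucose against 47.6% without. In gin2 it took 20.9% with glucose against 69.8% without, and in Ler 7.84% against 45.9%. The sum itself was lower with glucose in all 4 genotypes, at 510.5 RPM per kb in tor with glucose against 988 without, 333 in Col-0 against 757, 414 in gin2 against 1141, and 255 in Ler against 668. In the ethylene experiment XTH24 kept to 3.73% to 4.71% and XTH4 to 61.8% to 68.4% in the 4 groups. The tor seedlings also gave XTH15 a larger share than Col-0 did, 13.9% against 3.64% without glucose. These shares are descriptions over 3 libraries a group and were not tested.

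**Figure D2:**
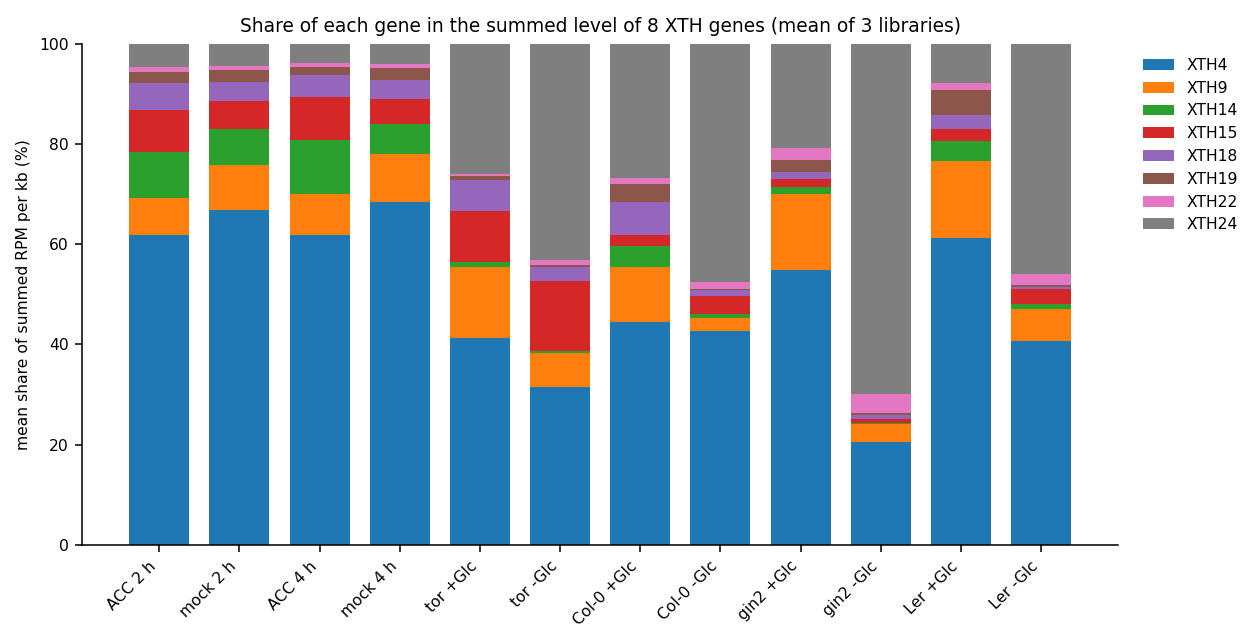
Mean share (%) of each of 8 XTH genes in their summed RPM per kb of transcript, in the 12 groups (3 libraries each). XTH4 takes the largest share in all groups with glucose in the medium, and XTH24 in the 4 groups without.

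Glucose for 2 h divided the members into risers and fallers in Col-0. Of the 10 genes 9 were called, against 56.3% of all genes tested in this comparison, with 5 higher (35.7% of all genes) and 4 lower (20.6% of all genes). For all 9 the libraries of the 2 groups did not overlap. How many of all genes were likewise without overlap was not counted, here or in the comparisons below. The risers were XTH17, XTH18, XTH19, XTH14 and XTH9. The fallers were XTH24, XTH15, XTH22 and XTH4. The median change of the 10 was 0.42, beside 0.14 over all genes, and the all-gene median was -0.02 under median-of-ratios scaling, a shift smaller than any of the 9 changes. Under that scaling the members again numbered 5 higher and 4 lower, and 28.9% of all genes were higher and 30.4% lower.

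XTH17 stood at 10.1, 8.46 and 9.13 RPM in Col-0 with glucose, against 1.88, 1.67 and 0.74 RPM without. It rose by 2.10 ± 0.21 (adjusted p = 2.12e-06). XTH18 stood at 29.2, 28.9 and 24.7 RPM with glucose, against 11.4, 11.8 and 7.56 RPM without, and rose by 1.36 ± 0.16 (adjusted p = 1.30e-05). For both genes every library with glucose lay above every library without it. XTH19 stood at 18.0, 14.1 and 17.2 RPM with glucose, against 5.1, 0.613 and 0.846 RPM without, with library 1 well above the other two among the glucose-free ones. It rose by 2.72 ± 0.51 (adjusted p = 0.000497). XTH14 rose by 1.20 ± 0.28 (adjusted p = 0.00256) to 16.6 ± 5.71 RPM with glucose, against 6.66 ± 2.26 RPM without (SD, n = 3). XTH9 rose by 0.86 ± 0.14 (adjusted p = 0.000147) to 56.0 ± 8.05 RPM, against 30.7 ± 6.05 RPM.

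The fallers in Col-0 included the most abundant members. XTH24 stood at 109.7, 108 and 106 RPM with glucose, against 302, 587 and 441 RPM without. The glucose-free libraries spread widely, but all 3 lay above those with glucose, and XTH24 fell by 1.98 ± 0.23 (adjusted p = 9.57e-06). XTH15 stood at 8.5, 9.12 and 8.45 RPM with glucose, against 25.3, 41.9 and 33.5 RPM without, a fall by 1.81 ± 0.15 (adjusted p = 4.74e-07). XTH22, the touch gene, fell by 1.25 ± 0.16 (adjusted p = 2.35e-05) to 6.06 ± 0.304 RPM with glucose, against 15.9 ± 2.05 RPM without. XTH4 stood at 231, 225 and 231 RPM with glucose, against 464, 509.6 and 500.4 RPM without, and fell by 1.10 ± 0.08 (adjusted p = 2.09e-07). XTH23 was the exception among the 10, at 3.74 ± 0.0807 RPM with glucose and 3.79 ± 0.603 RPM without (-0.01 ± 0.21, adjusted p = 0.976).

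In Col-0 the summed RPM of 4 root markers was also higher with glucose, at 133 to 135 RPM against 96.2 to 108 RPM without. Of these markers EXPA7 rose by 1.11 ± 0.36, COBL9 by 0.96 ± 0.20 and SCR by 0.35 ± 0.08, SHR was not called at 0.02, and none was at 0. The shoot marker LHCB1.3 fell by 0.99. Their part in the XTH changes was not tested.

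In tor the same treatment moved the fallers and none of the risers past the threshold. Of the 10 members 4 were called, all lower, against 34.7% of all genes called (19.9% higher and 14.8% lower), and the median of the 10 was -0.00 beside 0.05 over all genes. XTH22 stood at 4.19, 2.84 and 2.33 RPM in tor with glucose, against 12.9, 15.4 and 15.7 RPM without, a fall by 1.95 ± 0.16 (adjusted p = 2.22e-06). XTH24 stood at 198, 109 and 179 RPM with glucose, against 571, 452 and 532 RPM without, a fall by 1.71 ± 0.23 (adjusted p = 0.000107). Neither gene's libraries overlapped. XTH15 fell by 1.40 ± 0.15 (adjusted p = 1.78e-05) and XTH4 by 0.56 ± 0.08 (adjusted p = 0.000207). The genes that rose in Col-0 changed in tor by 0.18 (XTH17), 0.18 (XTH18), 0.31 (XTH19), 0.07 (XTH14) and 0.10 (XTH9), with adjusted p of 0.445 or more.

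Whether the glucose effect differed between tor and Col-0 was tested as an interaction, for which 17.4% of all genes (6.21% with a higher effect in tor and 11.2% with a lower one, or 10.6% and 10.2% under median-of-ratios scaling) and 5 of the 10 members were called. The effect in tor minus that in Col-0 was -1.93 ± 0.29 for XTH17 (adjusted p = 0.00117), -1.19 ± 0.23 for XTH18 (adjusted p = 0.00472), -2.41 ± 0.72 for XTH19 (adjusted p = 0.0350) and -0.76 ± 0.19 for XTH9 (adjusted p = 0.0181). XTH17 stood at 2.7, 3.27 and 3.23 RPM in tor with glucose and at 2.18, 2.06 and 3.75 RPM in tor without. The 2 tor groups overlapped, and tor with glucose lay under all 3 Col-0 libraries with glucose. XTH18 differed in form, since tor stood at 48.0, 32.7 and 40.3 RPM with glucose and at 37.3, 32.8 and 35.4 RPM without, all above the Col-0 libraries of either treatment. For XTH4 the fall was smaller in tor, a difference of 0.53 ± 0.12 (adjusted p = 0.00837), with 299, 345 and 331 RPM in tor with glucose against 501, 492 and 449 RPM without.

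The other fallers, XTH24 (0.27, adjusted p = 0.625), XTH15 (0.41, adjusted p = 0.206) and XTH22 (-0.69, adjusted p = 0.0538), and the riser XTH14 (-1.13 ± 0.40, adjusted p = 0.0669) did not pass the interaction test, which does not show that their glucose effects were alike in tor and Col-0. Calls for XTH19 and XTH9 depended on single libraries. That of XTH9 was lost without Col-0 library 1 with glucose (adjusted p = 0.0506) or tor library 3 without (adjusted p = 0.0501). That of XTH19 was lost on leaving out Col-0 library 2 or 3 without glucose, any Col-0 library with glucose, tor library 3 without glucose or tor library 2 or 3 with it, and with edgeR (adjusted p = 0.0576) and DESeq2 (adjusted p = 0.0704). XTH18 and XTH19 summed as 1 gene gave -1.61 (adjusted p = 0.00268). The root marker COBL9 had a difference of -1.32 in the same test, and its part in these results was not tested.

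**Figure D3:**
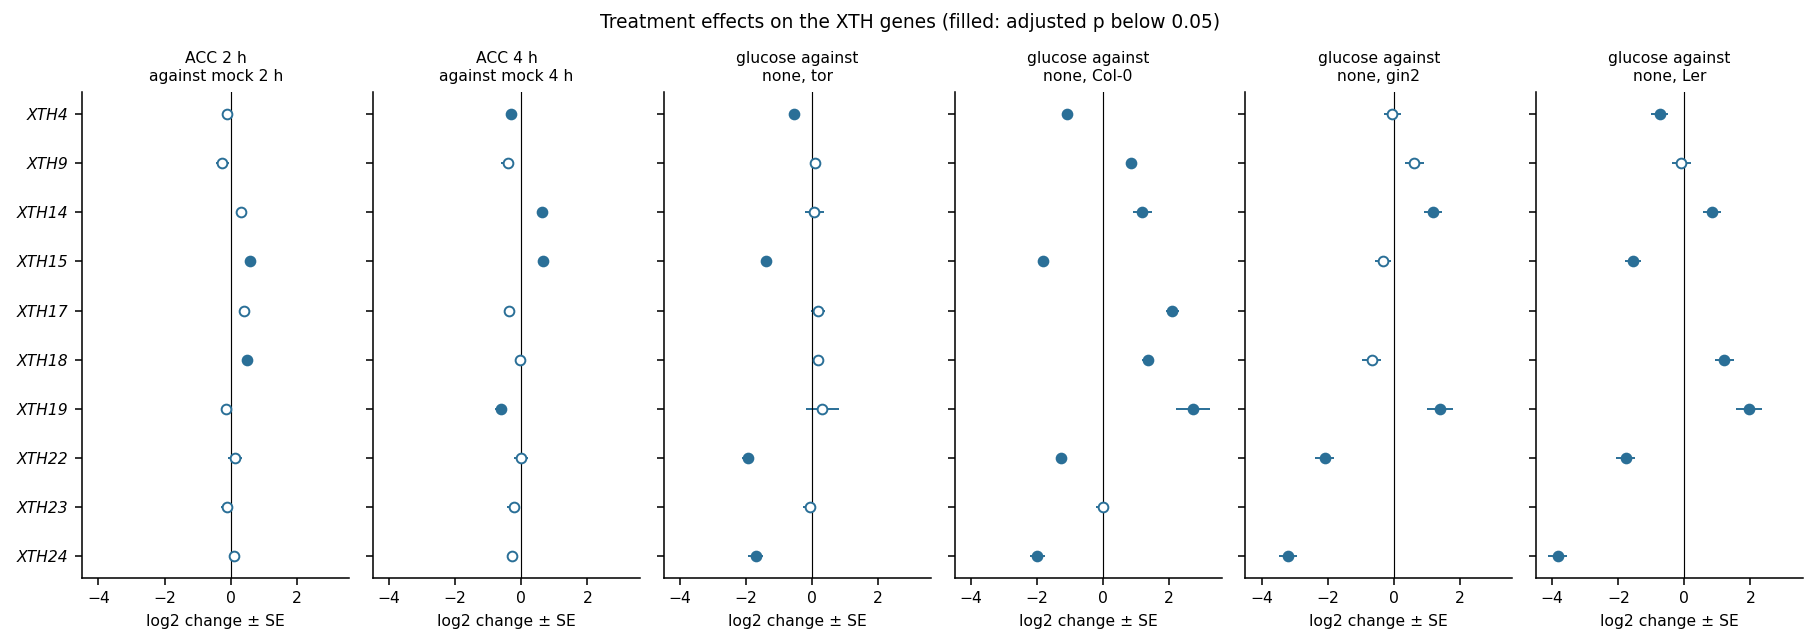
Log2 change ± SE of each XTH gene in 6 treatment comparisons (ACC against mock at 2 h and 4 h; glucose against none in tor, Col-0, gin2 and Ler), with filled points for adjusted p below 0.05. XTH17, XTH18 and XTH19 lie right of 0 at 1.36 to 2.72 in Col-0 and at 0.18 to 0.31, unfilled, in tor.

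The second glucose experiment asked the same of gin2 and Ler, with 8 members tested, since XTH17 in both genotypes and XTH23 in Ler were not analysed here. In Ler 7 of the 8 were called, against 28.7% of all genes, with 3 higher (17.4% of all genes) and 4 lower (11.3%), and the median of the 8 was -0.42 beside 0.10. Under median-of-ratios scaling 3 were again higher (25.3% of all genes) and 4 lower (25.4%). All 7 moved in the direction they took in Col-0 in the separate glucose-TOR experiment. There all 7 were called as well, as were 56.3% of all genes tested. The share of all genes called in the same direction in both experiments was not counted. XTH24 stood at 25.9, 30.9 and 15.9 RPM in Ler with glucose, against 556, 379 and 199.7 RPM without, and fell by 3.84 ± 0.29 (adjusted p = 2.95e-11). Library 3 was lowest in both groups, and the groups were far apart. XTH22 fell by 1.78 ± 0.28 (adjusted p = 1.70e-05) and XTH15 by 1.56 ± 0.25 (adjusted p = 2.03e-05). XTH19 stood at 15.0, 26.5 and 10.2 RPM with glucose, against 2.66, 6.68 and 2.02 RPM without, and rose by 1.96 ± 0.39 (adjusted p = 0.000344) without overlap.

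XTH18 rose in Ler by 1.21 ± 0.29 (adjusted p = 0.00221), with 6.51, 12.5 and 7.59 RPM with glucose against 5.31, 2.74 and 1.96 RPM without. For XTH4 (-0.75 ± 0.26, adjusted p = 0.0297) and XTH14 (0.84 ± 0.27, adjusted p = 0.0201) the libraries of the 2 groups overlapped. The call of XTH4 was lost in the fit to the compared groups only (adjusted p = 0.122) and without Ler library 1 or 2 of the glucose-free group or library 1 or 3 of the glucose group, and that of XTH14 without library 2 of either group. XTH9 stood at 61.3 ± 26.7 RPM with glucose and 65.3 ± 28.1 RPM without (-0.09, adjusted p = 0.84). Among the markers COBL9 rose in Ler by 0.89 and the seed-reserve gene CRU1 by 1.94, and their part was not tested. CRU1 had 43.2 to 143 RPM in Ler with glucose against 2.78 to 100 RPM without, ranges that overlapped.

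In gin2 4 of the 8 members were called, against 27.5% of all genes, with 2 higher (18.7% of all genes) and 2 lower (8.73%). Under median-of-ratios scaling 7 were called, 3 higher (22.7% of all genes) and 4 lower (23.7%). XTH24 stood at 87.3, 104 and 123 RPM in gin2 with glucose, against 912, 942 and 1038 RPM without, and fell by 3.20 ± 0.29 (adjusted p = 1.83e-09). XTH22 stood at 13.7, 15.4 and 16.0 RPM with glucose, against 57.4, 51.3 and 103 RPM without, and fell by 2.09 ± 0.28 (adjusted p = 1.65e-06). These glucose-free gin2 libraries held the highest RPM of either gene over all 36 libraries, though the experiments were normalized separately and not tested against each other. XTH14 rose by 1.18 ± 0.27 (adjusted p = 0.00148), at 7.34, 6.16 and 6.36 RPM with glucose against 2.71, 2.07 and 2.31 RPM without. XTH19 rose by 1.41 ± 0.39 (adjusted p = 0.00778), but 1 glucose-free library stood at 1.04 RPM while the others had 7.3 and 8.16 RPM. Without that library the adjusted p was 0.145, with DESeq2 it was 0.14, and summed with XTH18 the change was 0.22 (adjusted p = 0.635).

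Of the other members in gin2, XTH15 stood at 8.19, 7.32 and 8.06 RPM with glucose, against 10.1, 8.93 and 11.2 RPM without, all 3 lower. Its change of -0.32 ± 0.25 was not called (adjusted p = 0.373), but was under median-of-ratios scaling (-0.44, adjusted p = 0.0187) and with edgeR and DESeq2. XTH9 stood at 90.6, 92.9 and 100.1 RPM with glucose, against 52.3, 64.8 and 67.4 RPM without, all 3 higher. Its change of 0.62 ± 0.29 (adjusted p = 0.114) was called in 6 alternatives, among them the fit to the compared groups only (adjusted p = 6.50e-05) and median-of-ratios scaling (0.48, adjusted p = 0.0242). XTH18 changed by -0.66 ± 0.29 (adjusted p = 0.094) and was likewise called in 6 alternatives, with -0.77 under that scaling (adjusted p = 0.0208). XTH4 was at 352 ± 26.6 RPM with glucose and 362 ± 21.5 RPM without (-0.04 ± 0.26, adjusted p = 0.924). The root-hair marker EXPA7 rose in gin2 by 0.69, and its part was not tested.

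The interaction called 1 of the 8 members, XTH18, and 0.294% of all genes (0.236% higher and 0.0576% lower in gin2). XTH18 stood at 9.27, 6.89 and 6.93 RPM in gin2 with glucose against 8.63, 10.7 and 21.7 RPM without, so the gin2 groups overlapped. The glucose effect in gin2 minus that in Ler was -1.88 ± 0.41 for XTH18 (adjusted p = 0.0406). It was -1.95 under median-of-ratios scaling (adjusted p = 0.00857) and -1.71 without both Ler libraries numbered 3 (adjusted p = 0.0167). The call was lost on leaving out Ler library 2 without glucose, Ler library 1 or 2 with it, gin2 library 2 or 3 of either group, and when XTH18 was summed with XTH19 (adjusted p = 0.222). XTH15 (1.24 ± 0.35, adjusted p = 0.229) was called with that scaling (adjusted p = 0.00284), and with edgeR, DESeq2 and without both Ler libraries numbered 3.

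XTH transcripts differed between the genotypes, as did those of 51.5% to 61.4% of all genes tested in these comparisons. Here the scaling of the libraries matters. Between tor and Col-0 the median of all genes was 0.14 with glucose and 0.24 without it, and -0.00 at both under median-of-ratios scaling. Without glucose 5 of the 10 members were called, all higher in tor, against 55.4% of all genes (40.3% higher and 15% lower). Under median-of-ratios scaling 4 were higher (24.9% of all genes) and 1 lower (27.2%). XTH15 stood at 172, 179 and 147 RPM in tor, against 25.3, 41.9 and 33.5 RPM in Col-0, and was higher by 2.29 ± 0.15 (adjusted p = 1.50e-07). XTH9 stood at 96.2, 98.3 and 109.7 RPM in tor, against 30.9, 24.6 and 36.7 RPM in Col-0, and was higher by 1.71 ± 0.14 (adjusted p = 7.62e-07). Neither overlapped between the genotypes. XTH18 was higher by 1.70 ± 0.16 (adjusted p = 3.08e-06) and XTH23 by 0.91 ± 0.21 (adjusted p = 0.00260), with 7.98 ± 1.12 RPM in tor against 3.79 ± 0.603 RPM in Col-0. XTH17 was higher by 0.59 ± 0.21 (adjusted p = 0.0264), a call lost under median-of-ratios scaling (0.42, adjusted p = 0.126), with edgeR, DESeq2 or a fit to the compared groups only, and without Col-0 library 3 or tor library 3. XTH22 (-0.11) was not called from RPM and was lower under that scaling (-0.37, adjusted p = 0.0372).

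With glucose 9 of the 10 members were called between tor and Col-0, against 61.4% of all genes, with 5 higher (37.3% of all genes) and 4 lower (24.1%). Under median-of-ratios scaling 4 were higher (31.1% of all genes) and 4 lower (32.4%). XTH15 again led, at 56.7, 61.6 and 68.3 RPM in tor against 8.5, 9.12 and 8.45 RPM in Col-0 (2.70 ± 0.15, adjusted p = 3.34e-08). XTH9 (0.95 ± 0.14, adjusted p = 5.46e-05), XTH23 (0.84 ± 0.21, adjusted p = 0.00359) and XTH4 (0.50 ± 0.08, adjusted p = 0.000164) were also higher. The lower genes were XTH17 (-1.33 ± 0.21, adjusted p = 0.000103), XTH14 (-1.20 ± 0.28, adjusted p = 0.00227), XTH22 (-0.80 ± 0.16, adjusted p = 0.000816) and XTH19. XTH18 (0.52 ± 0.16, adjusted p = 0.0148) and XTH19 (-1.44 ± 0.51, adjusted p = 0.0248) went opposite ways, and their sum gave 0.042 (adjusted p = 0.871). The call of XTH18 was also lost under median-of-ratios scaling (adjusted p = 0.0711), with edgeR (adjusted p = 0.0511) and without Col-0 library 3 or tor library 1, and that of XTH19 without Col-0 library 1 or 3 or tor library 2 or 3.

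The markers differed between tor and Col-0 as well. The shoot sum was 9334 to 18283 RPM in tor against 21856 to 24895 RPM in Col-0 with glucose, and 12737 to 15500 RPM against 26365 to 34804 RPM without. The root sum was 109 to 121 RPM in tor against 133 to 135 RPM in Col-0 with glucose, and 113 to 120.6 RPM against 96.2 to 108 RPM without. With glucose the root-hair genes EXPA7 and COBL9 were lower in tor, at -2.24 and -1.35. Without glucose the seed gene CRU1 was higher in tor by 3.20, with 1.46 to 86.7 RPM in tor against 0.476 to 1.94 RPM in Col-0, ranges that overlapped. Their part in the differences of the XTH genes was not tested.

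**Figure D4:**
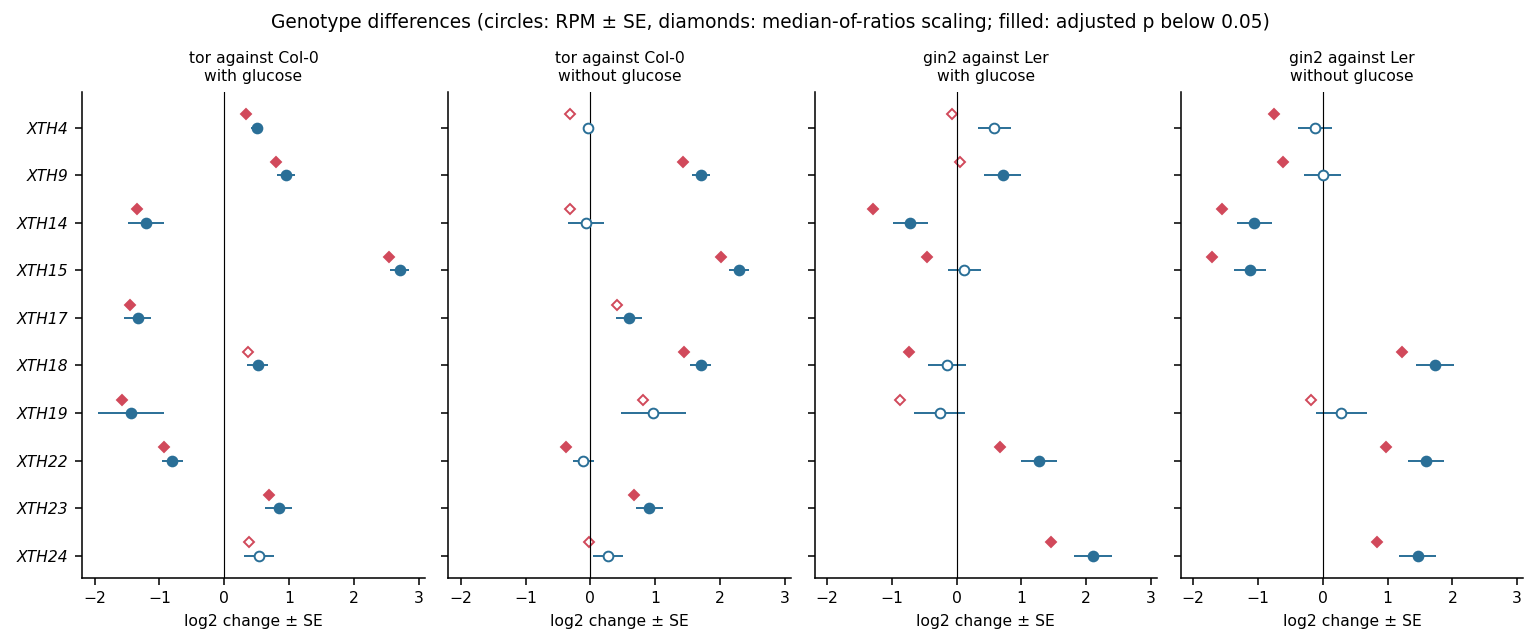
Log2 difference of each XTH gene between tor and Col-0 and between gin2 and Ler, with and without glucose, from RPM (circles, ± SE) and under median-of-ratios scaling (diamonds), filled for adjusted p below 0.05. For gin2 against Ler the diamonds lie to the left of the circles, at 1.46 against 2.10 for XTH24 with glucose. For tor against Col-0 the shifts are smaller, but the calls of some genes change with the scaling.

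Between gin2 and Ler the scaling decided more. From RPM the median of all genes was 0.62 with glucose and 0.55 without, and 97.3% and 96.8% of the called genes were higher in gin2. Under median-of-ratios scaling the medians were 0.02 and 0.00, and the shares 50.5% and 46.1%. XTH24 was higher in gin2 under both, by 2.10 ± 0.29 with glucose (adjusted p = 4.83e-06, 1.46 under that scaling) and by 1.47 ± 0.29 without (adjusted p = 0.000438, 0.84 under that scaling). XTH22 was likewise higher, by 1.28 ± 0.28 with glucose (adjusted p = 0.00075, 0.68 under that scaling) and by 1.59 ± 0.28 without (adjusted p = 0.000198, 0.98 under that scaling). XTH14 was lower under both, at -0.71 ± 0.27 with glucose (adjusted p = 0.0277, -1.29 under that scaling) and at -1.05 ± 0.27 without (adjusted p = 0.00333, -1.55 under that scaling). Its call with glucose was lost without Ler library 2 or gin2 library 2 or 3.

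Without glucose 5 of the 8 members were called between gin2 and Ler, against 51.5% of all genes, with 3 higher in gin2 (49.9% of all genes) and 2 lower (1.66%). Under median-of-ratios scaling 3 were higher (14.9% of all genes) and 4 lower (17.4%), the added ones being XTH4 (-0.12 from RPM, -0.75 under that scaling, adjusted p = 0.000507) and XTH9 (-0.00 from RPM, -0.62 under that scaling, adjusted p = 0.0102). Besides the 3 above these were XTH18, higher in gin2 by 1.73 ± 0.29 (adjusted p = 0.000132, 1.22 under median-of-ratios scaling), and XTH15, lower at -1.12 ± 0.25 (adjusted p = 0.00121, -1.71 under that scaling). XTH15 stood at 10.1, 8.93 and 11.2 RPM in gin2, against 32.9, 23.9 and 15.4 RPM in Ler, without overlap. With glucose 4 of the 8 were called, against 58.7% of all genes, with 3 higher in gin2 (57.1% of all genes) and 1 lower (1.61%). Under median-of-ratios scaling the balance turned, with 2 higher (17.1% of all genes) and 3 lower (16.8%). The fourth, XTH9 (0.71 ± 0.29, adjusted p = 0.0360), did not pass under median-of-ratios scaling (0.06, adjusted p = 0.807), with edgeR, DESeq2 or RPM over listed genes, or without Ler library 1 or 3 or any 1 gin2 library. XTH15 turned with the scaling in this comparison, from RPM 0.12 (adjusted p = 0.675) and under median-of-ratios scaling -0.46 (adjusted p = 0.0210). XTH18, at -0.14 from RPM, was lower under that scaling (-0.73, adjusted p = 0.0373), and also with edgeR (-0.82) and DESeq2 (-0.84). XTH4 gave 0.59 from RPM and -0.08 under that scaling with glucose, neither of them called. The seed gene CRU1 was lower in gin2, at -4.41 with glucose and -3.01 without, as was the shoot marker LHCB1.3 with glucose (-0.91), and their part was not tested. CRU1 spread from 2.78 to 100 RPM among the Ler libraries without glucose.

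With ACC the called changes were at most 0.64 in size, beside 0.86 to 2.72 with glucose in Col-0, in experiments that were not tested against each other. After 2 h, XTH15 and XTH18 were called higher, 2 of 10 against 9.25% of all genes (5.47% higher and 3.78% lower). XTH15 stood at 61.7, 56.0 and 48.6 RPM with ACC, against 35.1, 39.4 and 34.8 RPM with mock, and rose by 0.59 ± 0.09 (adjusted p = 0.000952). XTH18 stood at 39.2, 37.0 and 36.7 RPM with ACC, against 25.1, 30.3 and 24.7 RPM with mock, and rose by 0.48 ± 0.10 (adjusted p = 0.00547). Neither gene's libraries overlapped. Summed with XTH19, which was at 16.0 ± 1.71 RPM with ACC and 18.0 ± 5.18 RPM with mock, the change was 0.27 (adjusted p = 0.207). XTH14 (0.33, adjusted p = 0.181) and XTH17 (0.40, adjusted p = 0.141) were higher in all 3 ACC libraries than in all 3 mock libraries, but did not pass the test.

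After 4 h, 4 of the 10 were called, against 19.4% of all genes, with 2 higher (10.5% of all genes) and 2 lower (8.88%), shares of all genes that were 7.52% and 10.2% under median-of-ratios scaling. XTH15 rose by 0.64 ± 0.09 (adjusted p = 0.000367), at 49.5, 49.4 and 56.9 RPM with ACC against 35.6, 30.5 and 32.4 RPM with mock. XTH14 rose by 0.64 ± 0.14 (adjusted p = 0.00598), at 57.9, 67.4 and 62.8 RPM against 32.4, 49.0 and 39.9 RPM. XTH4, the most abundant member, fell by 0.33 ± 0.08 (adjusted p = 0.00969), at 490.5, 483 and 447 RPM against 555, 622 and 605 RPM. None of these 3 overlapped between ACC and mock, and neither did XTH19. How many of all genes were likewise without overlap was not counted. XTH19 fell by 0.63 ± 0.18 (adjusted p = 0.0255), at 11.7, 10.8 and 10.9 RPM against 16.3, 23.0 and 14.9 RPM. Its call was lost without mock library 2 (-0.45, adjusted p = 0.111), without ACC library 1, 2 or 3, with no filter on low values (adjusted p = 0.109) and on summing with XTH18 (-0.26, adjusted p = 0.15). XTH22, XTH23, XTH24, XTH9 and XTH17 were not called at either time. At 4 h XTH17 (-0.38, adjusted p = 0.104) and XTH24 (-0.27, adjusted p = 0.0940) were lower in all 3 ACC libraries than in all 3 mock libraries, but did not pass the test. The libraries of XTH22, XTH23 and XTH9 overlapped.

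The ACC effect at 4 h minus that at 2 h was called by limma for 0 of the 10 members and 0.036% of all genes (0.00514% higher and 0.0309% lower), and by edgeR and DESeq2 for 0 of the 10. At an unadjusted p below 0.05 there were 3 of the 10 members, XTH18 (-0.53 ± 0.14), XTH17 (-0.78 ± 0.22) and XTH24 (-0.39), beside 1555 of all 19442 genes tested. Mock at 4 h against mock at 2 h gave 0 of 10 members with limma, edgeR and DESeq2, and 0.0566% of all genes with limma (0.0154% higher and 0.0411% lower). At an unadjusted p below 0.05 it gave 0 of the 10 members, beside 1533 of all 19442 genes. The root-hair marker EXPA7 rose with ACC by 0.74 at 2 h and 0.84 at 4 h, while SHR fell by 0.48 and LHCB1.3 by 0.71 at 4 h. The root sums were 112 to 125 RPM with ACC against 94.2 to 115 RPM with mock at 2 h, and 109 to 113 RPM against 104 to 109.6 RPM at 4 h, and their part was not tested.

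The rest of the XTH family also parted into risers and fallers. In Col-0 glucose raised 9 and lowered 5 of 18 other XTH genes tested (median 0.44, beside 0.14 over all genes), where 35.7% and 20.6% of all genes did so. XTH12 rose by 2.61 ± 0.40, XTH20 by 2.18 ± 0.20 and XTH31 by 2.11 ± 0.19, while XTH6 fell by 2.00. In tor 2 rose and 8 fell (19.9% and 14.8% of all genes), among them XTH6 by 1.63, and XTH31 rose by 1.08. The interaction called 8 of the 18, 7 of them lower in tor (11.2% of all genes), led by XTH12 (-2.55), XTH13 (-1.89) and XTH20 (-1.62). XTH12, XTH13 and XTH20 are, like XTH14 and XTH17, known from roots. In gin2 5 of 17 rose and 4 fell (18.7% and 8.73% of all genes), and in Ler 6 rose and 4 fell (17.4% and 11.3% of all genes). XTH30 fell by 1.87 in gin2 and by 2.51 in Ler, XTH12 rose by 1.74 in gin2, and XTH20 rose by 1.78 in Ler.

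With ACC 3 of 18 other XTH genes rose and 4 fell at 2 h (5.47% and 3.78% of all genes), and 5 rose and 5 fell at 4 h (10.5% and 8.88% of all genes). XTH21, known from roots, fell by 1.08 at 2 h and by 2.03 ± 0.18 at 4 h. XTH26, known from root hairs, rose by 0.75 and by 1.11, and XTH12 by 1.14 at 4 h. Between tor and Col-0 8 of 18 were higher and 6 lower with glucose (37.3% and 24.1% of all genes), led by XTH12 (-2.68), XTH13 (-2.11) and XTH20 (-1.85). Under median-of-ratios scaling these were 6 and 8, where 6008 of all 19336 genes were higher and 6256 lower. Without glucose 5 were higher and 1 lower (40.3% and 15% of all genes), led by XTH16 (2.18), XTH25 (1.95) and XTH33 (1.77). Between gin2 and Ler 5 of 17 were higher and 2 lower with glucose, including XTH25 (-2.30), against 57.1% and 1.61% of all genes. Without glucose 1 was higher and 4 lower, including XTH5 (-1.21), against 49.9% and 1.66%. Under median-of-ratios scaling these counts were 2 higher and 8 lower with glucose (17.1% and 16.8% of all genes), and 0 higher and 9 lower without (14.9% and 17.4%).

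**Figure D5:**
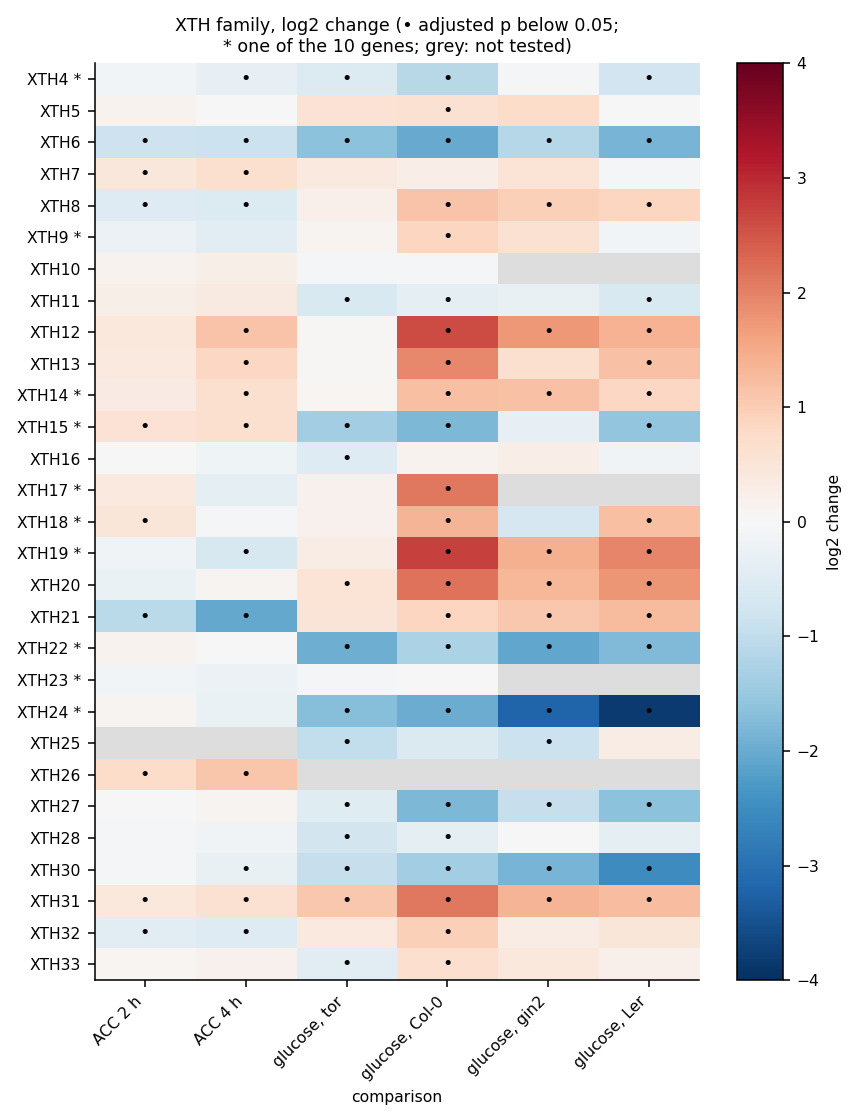
Log2 change of 29 XTH genes (rows; * marks the 10 members) in 6 treatment comparisons (columns), on a colour scale centred on 0, with a dot for adjusted p below 0.05 and grey for genes not tested. Of the 10 members 9 carry a dot in the Col-0 glucose column and 4 in the tor column, beside 14 and 10 of 18 other XTH genes.

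Of 14 genes that make xyloglucan 10 rose and 1 fell with glucose in Col-0 (median 0.59, beside 0.14 over all genes), where 35.7% and 20.6% of all genes did so. The galactosyltransferase gene XLT2 rose by 1.55 ± 0.14, the glucan synthase gene CSLC4 by 1.25 ± 0.12 and MUR3 by 1.19 ± 0.10. In tor 7 rose and none fell (19.9% and 14.8% of all genes), led by AXY4, which acts in xyloglucan acetylation, at 1.07. In gin2 6 rose and none fell, with XLT2 at 1.00 (18.7% and 8.73% of all genes), and in Ler 6 rose and none fell, with XLT2 at 1.44 and MUR3 at 1.05 (17.4% and 11.3% of all genes). The glucose effect was lower in tor than in Col-0 for CSLC4 (-0.91) and XLT2 (-0.61). Between tor and Col-0 7 were higher and 2 lower with glucose (37.3% and 24.1% of all genes), and 9 were higher and none lower without (40.3% and 15%), with CSLC4 at 2.25 and XXT1 at 1.19. Under median-of-ratios scaling these were 5 and 2 with glucose, and 5 and 3 without. Of all 19336 genes, 6008 were higher and 6256 lower with glucose under that scaling, and 4819 and 5269 without. With ACC 2 rose and 2 fell at 2 h (5.47% and 3.78% of all genes), among them CSLC12 at 0.89, and 2 rose and 1 fell at 4 h (10.5% and 8.88%). Of 3 genes whose products trim xyloglucan, the xylosidase gene XYL1 rose by 0.74 and the galactosidase gene BGAL10 fell by 0.48 with glucose in Col-0.

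XTH22 is known as a touch gene, so 6 other touch-induced genes were set beside it. With ACC 2 of the 6 rose at both times (5.47% of all genes at 2 h and 10.5% at 4 h), with WRKY40 at 1.28 and CML12, a calmodulin-like gene also known as TCH3, at 1.12 after 2 h, while XTH22 was not called (0.14). With glucose 3 rose and none fell in tor (19.9% and 14.8% of all genes). In Col-0 3 rose and 1 fell (35.7% and 20.6% of all genes), and XTH22 fell in both genotypes. Under median-of-ratios scaling 2 rose and 2 fell in Col-0, where 5588 and 5876 of all 19336 genes did so. In gin2 and in Ler 2 fell and none rose (8.73% and 11.3% of all genes fell), CML12 by 1.60 and 1.55 and WRKY40 by 1.04 and 0.91, and XTH22 fell too. Between tor and Col-0 with glucose 4 of the 6 were higher and none lower (37.3% and 24.1% of all genes). Among them were CML12 (2.40) and WRKY40 (2.17), while XTH22 was lower (-0.80). Between gin2 and Ler 2 of the 6 were higher and none lower with glucose (57.1% and 1.61% of all genes), and 3 and none without (49.9% and 1.66%). From RPM CML12 was higher by 2.05 with glucose and 2.10 without, and XTH22 was higher too. The median of all genes was 0.62 and 0.55 in these 2 comparisons.

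Across libraries, after each experiment's mean was taken off, members were compared in pairs. XTH22 and XTH24 had Pearson's r of 0.90, and XTH4 and XTH24 0.72, over 36 libraries. XTH17 and XTH19 had r of 0.87, and XTH17 and XTH18 of 0.47, both over 24 libraries. XTH4 and XTH17 ran opposite (-0.75), and XTH9, XTH18 and XTH23 had r of 0.61 to 0.69 in pairs, while XTH9 had 0.18 with XTH17 and 0.01 with XTH24. These values are across libraries that share treatments and depth, and describe likeness only.

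Among 16986 genes the one most like XTH24 was AT3G51730 (r = 0.97), followed by XTH30 and the trehalase gene TRE1, also at 0.97. XTH22 was most like ERD14 (0.95) and DTA2 (0.94), XTH14 like MOP10 (0.93), with the expansin gene EXPA18 close behind (0.92), and XTH15 like MKK9 (0.93). XTH4 was most like AT5G44020 (0.92), and XTH9 like AT2G35470 (0.92). For XTH17, over 24 libraries and 18780 genes, AT2G45750 (0.93) and the glucanase gene GH9C3 (0.90) came first, and for XTH23 MYB15 (0.87). XTH18 and XTH19 had lower best values, AT4G28890 (0.83) and AT1G10400 (0.86), with the tubulin gene TUB1 also at 0.86 for XTH19.

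Members that lie next to each other did not always move together. XTH14 and XTH23 lie 363 bases apart on chromosome 4, and XTH14 rose with glucose in Col-0 while XTH23 did not pass the test. XTH18 and XTH24 lie 5161 bases apart on the same chromosome, and with glucose in Col-0 the first rose while the second fell. XTH15 overlaps the gene AT4G14120 on the other strand over 382 bases, 27.8% of its length. The counting strand is not given, so reads from this stretch could be credited to either gene. AT4G14120 averaged 0.62 to 4.87 RPM over the groups, and in Col-0 it was higher with glucose (4.14 RPM) than without (1.03 RPM), against the direction of XTH15. Of the 50-base windows of their transcripts, 1.57% in XTH18, 1.63% in XTH19 and 0.171% in XTH17 also occur, letter for letter, in another gene. Stretches that are alike but not identical were not counted, and whether reads were divided between these relatives was not tested.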

How the data were processed

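Messenger RNA of 36 libraries of whole seedlings was sequenced. The submitters' processing notes name TopHat, an aligner, and HTSeq, a counter of reads per gene. For these the sources used here do not give versions, genome build, strand setting or the handling of reads matching more than 1 gene. The deposited table holds RPM per gene and library, which the authors computed from those counts, separately in each experiment. All values used were whole multiples of the value of 1 read (100% within 0.02 reads). The recovered whole reads served only edgeR 4.0.16 and DESeq2 1.42.0, as alternatives.

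The filter asked for 1 RPM or more in 3 or more of an experiment's 12 libraries and left 19442 for ethylene, 19336 for glucose-TOR and 17352 for glucose-HXK1. Each experiment's 12 libraries were fitted as log2(RPM + 1) in R 4.3.3 by limma 3.58.1, whose prior variance followed the mean. The 14 comparisons were contrasts of these fits, tested two-sided, with Benjamini-Hochberg adjustment over all genes tested. Errors of RPM are SD over the 3 libraries of a group. Floors of 3 reads take in counting error alone, as reads lacking molecular identifiers may copy 1 molecule.

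The members, the gene lists and the alternatives were chosen with earlier results of these data known. Named genes are all 10 members, up to 3 called genes per list and comparison with the largest changes, TOR, HXK1, the markers, and for each member up to 3 genes with the highest r. Genes listed for gin2 but not for Ler were left out of the tests. Members were matched to RefSeq (TAIR10.1) by gene code, 8 by symbol and 2 by synonym. Sequences come from that build and coordinates from its annotation. Equal replicate numbers were checked by the correlation of residuals across genes. All 3 pairs had r above 0.1 only for mock 4 h against mock 2 h (0.595, 0.411 and 0.382), and where this pairing comes from is not stated in the labels.

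Alternatives were a fit to the compared groups only, median-of-ratios scaling, a pseudocount of 0.25 RPM, no filter, a replicate block, edgeR, DESeq2, RPM over nuclear genes (ethylene and glucose-TOR), XTH18 and XTH19 summed, leaving out each library in turn, and leaving out both Ler libraries numbered 3. RPM over listed genes (glucose-HXK1) was added after the data had been seen. In glucose-HXK1 all 17352 genes listed in every library passed the filter. The fit without a filter therefore repeats the main fit there and is no separate check.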

Additional observations from a re-analysis of the deposited data

Results flagged for a closer look

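Of the glucose effects compared between genotypes, 6 differed by the test of the difference itself, which is what marks them here. The effect in tor minus that in Col-0 was -1.93 ± 0.29 for XTH17 (adjusted p = 0.00117), -1.19 ± 0.23 for XTH18 (adjusted p = 0.00472), -2.41 ± 0.72 for XTH19 (adjusted p = 0.0350) and -0.76 ± 0.19 for XTH9 (adjusted p = 0.0181), all genes that rose in Col-0. For XTH4, which fell in both genotypes, it was 0.53 ± 0.12 (adjusted p = 0.00837). The effect in gin2 minus that in Ler was -1.88 ± 0.41 for XTH18 (adjusted p = 0.0406), the only one of 8 members called in that test by limma from RPM. Under median-of-ratios scaling limma also called XTH15 (1.25, adjusted p = 0.00284). Among the alternatives run, the call was lost in 8 of 22 for XTH18 in gin2, in 10 of 21 for XTH19 in tor and in 2 of 20 for XTH9, and in none for XTH17, XTH18 and XTH4 in tor. The 22 include the fit without a filter, which repeats the main fit in glucose-HXK1. These adjusted p-values come from limma over all genes tested.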

How the results depend on the processing

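Over the 10 genes and 14 comparisons 130 values were tested, and 59 were called. Of these 46 stayed called in the same direction under every alternative run, and 13 lost their call under at least 1, of which 1 turned: XTH19 in tor against Col-0 with glucose gave 0.042 when summed with XTH18. Of the 71 values not called, 21 were called under at least 1 alternative. XTH15 in gin2 against Ler with glucose turned to -0.46 under median-of-ratios scaling, -0.51 with edgeR and -0.53 with DESeq2. The cause was not tested.

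Members called for glucose in gin2 numbered 7 under median-of-ratios scaling and 7 with edgeR, against 4. Of all 17352 genes tested, 8060 were called under that scaling, against 4766. For the glucose effect in gin2 against that in Ler, members called numbered 2 under that scaling, 3 with edgeR and 3 with DESeq2, against 1. They numbered 3 without both Ler libraries numbered 3 and 2 with RPM over listed genes. Of all genes, 336 were called there under that scaling and 306 with RPM over listed genes, against 51. Leaving out each library in turn gave 2 to 3 members called for ACC at 2 h, 3 to 4 at 4 h, and 0 to 0 for the difference of the ACC effects and for mock over time. For glucose the counts were 4 to 4 in tor, 9 to 9 in Col-0, 3 to 5 in gin2 and 5 to 7 in Ler, and for the differences of the effects 3 to 6 (tor, Col-0) and 0 to 2 (gin2, Ler). Between tor and Col-0 they were 7 to 9 with glucose and 4 to 6 without, and between gin2 and Ler 2 to 4 with and 5 to 6 without. The replicate block changed no member call for mock over time. Elsewhere the samples share only a number, and with the block 5 members against 4 were called between gin2 and Ler with glucose, the added one being XTH4.

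The glucose-HXK1 experiment had the fewest reads, and the part of its RPM on genes not listed differed between gin2 and Ler. What part either has in the effect of scaling was not tested. Low members such as XTH17, XTH19 and XTH23 rest on few reads.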

Other observations

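XTH23 in gin2, where it is listed while its values in Ler were not analysed here, stood at 1.24, 1.02 and 1.27 RPM with glucose, against 1.81, 0.717 and 4.31 RPM without. It was not tested, and the groups overlapped.

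In gin2 without glucose XTH22 stood behind XTH24 and XTH4, at 44.4 RPM per kb of transcript beside 796 and 234. XTH9 was close, at 40.4 RPM per kb. With SDs of 17.8 for XTH22 and 5.31 for XTH9 (n = 3), these levels did not differ beyond their spread. In Col-0 without glucose XTH15 and XTH9 also stood above XTH22, which had 10.0 RPM per kb. The gin2 and Col-0 values come from experiments that were normalized separately and were not tested against each other.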
